A study of Rattus norvegicus with 9 samples.

Results

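The rows described here are the RIKEN clone genes and the opposite-strand transcripts of an expression table from mouse 4T1 breast cancer cells. Members were taken by name: every row whose gene name ends in Rik, or ends in os in lower case. The rule took 143 of 2392 rows (5.98%), of which 135 are Rik clones and 7 are opposite-strand transcripts (Ptprtos, Prss23os, Anxa11os, Med9os, Uckl1os, Ccdc142os and Hectd2os). The remaining row is Fos, a protein-coding gene whose symbol ends in os only by its spelling. Fos was kept apart, and the counts below are over the other 142 members. The descriptions in the table bear the names out: all 135 Rik rows are described as RIKEN cDNA genes, and 11 rows are described as opposite strand. Of those 11, 4 end in a number (Runx2os1, Zmiz1os1, Ube4bos1 and Atxn7l1os2), so the rule does not take them.

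A Rik name is a placeholder. It is made of the identifier of a full-length cDNA clone from the RIKEN mouse collection, and it is given to a transcribed locus that has no functional name yet. Such loci include long noncoding RNAs, pseudogenes and protein-coding genes that no one has characterised. An opposite-strand transcript is an RNA read from the strand opposite a named gene, usually overlapping it or starting near its promoter, and it takes the name of that gene with the ending os. Antisense RNAs of this kind can act on the gene they overlap in some loci and have no known role in many others.

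Polyadenylated RNA was sequenced from 4T1, a cell line of mouse mammary carcinoma, in 9 libraries. The Control group (3 libraries) was grown in medium, the MoS2 group (3 libraries) was given molybdenum disulfide nanoparticles, and the MoS2_NIR group (3 libraries) was given the nanoparticles and near-infrared light. No group with light alone is in the design, so an effect of light and an effect of light on particle-treated cells cannot be told apart. The title of the study speaks of low-temperature photothermal therapy, in which particles turn light into mild heat. Whether the libraries within a group are separate cultures is not stated in the labels, so the p-values measure the spread between these libraries, which may be technical. In what follows, the particle step is MoS2 against Control, the light step is MoS2_NIR against MoS2, and the whole change is MoS2_NIR against Control.

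The deposited table holds standardized scores, from which the expression values behind them were recovered for 2391 rows. The words as deposited stand below for these recovered values without further scaling, and not for the scores. Their unit is not stated and they are not known to be per length, so levels are compared between libraries and never between genes. The depth of the libraries is unknown, and the way the authors picked the 2392 genes is not stated, so every share below describes a picked table and not the transcriptome. Libraries of 1 group correlated with each other at 0.982 to 0.988 across genes, which are not independent replicates. Of a list of 10 epithelial and 4T1 genes, 4 are in the table (Lcn2, Spp1, Krt14 and Csf3), and their summed value was between 1643 and 1770 in Control, 1301 and 1335 with MoS2, and 806 and 858 with MoS2_NIR. Spp1 and Lcn2 make up most of that sum, and Csf3 went the other way, from 62.33 to 64.02 in Control through 114.28 to 123.60 with MoS2 to between 140.66 and 209.50 with MoS2_NIR. Of 8 immune markers none was among the rows analysed. Of 9 fibroblast markers Postn and Col1a1 are present, with a summed value of 4.40 to 5.26 in Control, 2.44 to 3.50 in MoS2 and 0.67 to 1.01 in MoS2_NIR. The part of any change in cell makeup in the results below was not tested, and in bulk RNA fewer cells of a type and less RNA per cell cannot be told apart.

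Differences were tested with limma on log2(value + 1) over all genes that reached a value of 1 in 3 or more libraries, and a gene was called at an adjusted p under 0.05. That limit was passed by 69 of the 142 members (48.6%), namely 63 of 135 Rik clones and 6 of 7 opposite-strand transcripts. It was passed by 1679 of the 2249 other rows with recovered values (74.7%), Fos among them. The limit shapes which members were tested: 8 members passed it through the MoS2_NIR libraries alone and 1 through the Control libraries alone, and 37 had at least 1 in all 9 libraries. The same counts were therefore made over all 142 members with no limit. The fold changes are on the log2(value + 1) scale, which understates the change of transcripts with low values.

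With the values as deposited, about as many members were called lower as higher in MoS2_NIR than in Control, while more of the other genes were called higher than lower. With a stricter limit on low values, given below, this contrast was not seen. Without a limit on low values, 66 of the 142 members were higher and 73 lower in MoS2_NIR than in Control (46.5% and 51.4%), and 3 were not called. Over all 2391 genes the background was 59.9% higher and 36.6% lower. The median log2 fold change of the members was -0.22, beside 0.67 for the rest of the table. It was 0.73 beside 1.02 with the limit, and 1.23 beside 1.18 with a limit of at least 5 in 3 libraries. The distance of the medians thus depended on the low values, which are commoner among members. Among the 69 members above the limit, 37 were higher and 31 lower (53.6% and 44.9%), beside a background of 63.5% higher and 33.9% lower over the 1748 genes tested. With a limit of at least 5 in 3 libraries, 19 of 28 members were higher and 8 lower (67.9% and 28.6%), beside 65% and 33% of 1054 genes tested. The shares were not tested against each other, because members were chosen with earlier results of these data known.

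The particle step moved fewer members. Without the limit, 11 members were higher and 29 lower in MoS2 than in Control (7.75% and 20.4%), beside a background of 21.1% higher and 16.7% lower. Among the 69 members above the limit, 12 were higher and 12 lower (17.4% in each direction), beside 30.1% and 16.8% of all genes tested. At the light step, without the limit, 61 members were higher and 38 lower in MoS2_NIR than in MoS2 (43% and 26.8%), beside a background of 57.5% and 21.2%. Among those above the limit, 34 were higher and 21 lower, beside a background of 61.7% higher and 25.4% lower.

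How many members were called higher depended on how libraries were scaled to each other. The recovered values were used without further scaling, and the median-ratio factors of the libraries were 0.661 to 0.786 in Control, 0.904 to 0.951 in MoS2 and 1.60 to 1.68 in MoS2_NIR. Both other scalings were made over the rows of this picked table alone, and 97.4% of its tested genes were called in the whole change. Median-ratio scaling takes most genes as unchanged, and quantile normalization gives all libraries the same distribution. Where a call was lost under them, a difference of scale and a change that they removed cannot be told apart. Over all genes without the limit, the median log2 difference between MoS2_NIR and Control was 0.62 as deposited, 0.13 with median-ratio scaling and 0.37 with quantile normalization. The members' median was -0.22, -0.36 and -0.25 under the same scalings, and stayed below that of all genes in each. In the whole change 29 members were higher and 77 lower with median-ratio scaling (background 34% and 39.1%), and 60 and 76 with quantile normalization (54.4% and 37.9%). At the particle step 6 were higher and 58 lower with median-ratio scaling (background 9.58% and 31.5%), and 12 and 30 with quantile normalization (18.5% and 18.2%). At the light step the counts were 30 and 54 (background 23.8% and 30.2%), and 38 and 57 (37.1% and 28.9%). In each of these scalings the share of members called lower exceeded the background. Within the 69 members above the limit, median-ratio scaling gave 6 higher and 29 lower at the particle step (background 13.1% and 31%), 13 and 33 in the whole change (34.8% and 36.3%), and 14 and 32 at the light step (23.7% and 35%). Quantile normalization gave 11 and 18 (26.1% and 19.9%), 34 and 32 (57.2% and 35%), and 19 and 32 (38.7% and 32.1%) in the same order. All 31 members that fell in the whole change and 13 of the 37 that rose in it kept the call under all 3 scalings. Of the other tested genes, 559 of 561 falls and 595 of 1073 rises did so. With the factors above, median-ratio scaling shifts fold changes of MoS2_NIR against Control downwards, and quantile normalization lowered their median. Falls could therefore hardly lose their call, and that they kept it says little. The member 5730480H06Rik, named because its direction changed, was called higher as deposited (log2 fold change 0.65, limma adjusted p = 0.00113) and lower after median-ratio scaling (-0.32, limma adjusted p = 0.0322).

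**Figure D1:**
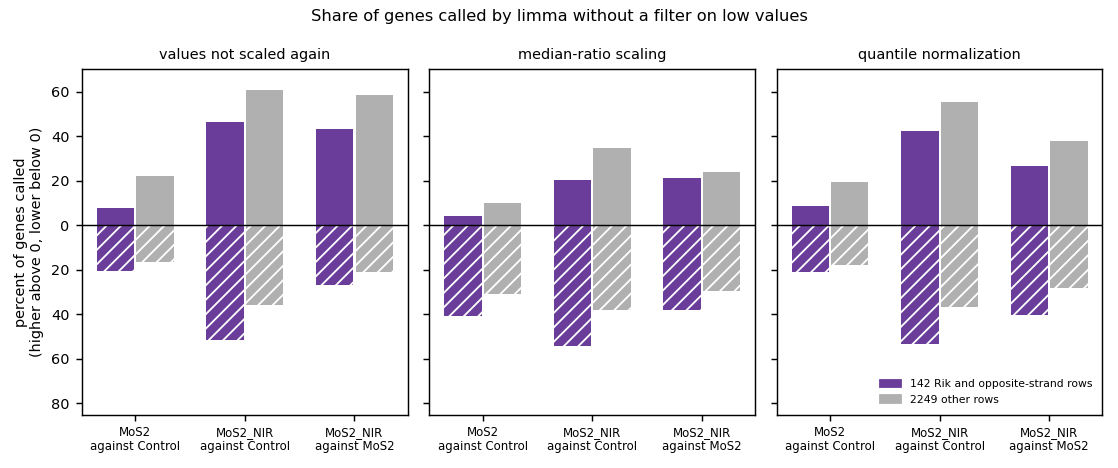
Percent of genes called by limma in each comparison without a limit on low values, higher drawn upwards from 0 and lower (hatched) drawn downwards, for the 142 Rik and opposite-strand members (purple) and the 2249 other rows (grey), with the values as deposited and after 2 further scalings. In MoS2_NIR against Control the members show 46.5% higher and 51.4% lower as deposited, the other rows 60.8% and 35.6%, and after median-ratio scaling 20.4% and 54.2% beside 34.9% and 38.2%.

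The separation of the libraries was also counted without a model. In 65 of 142 members all MoS2_NIR libraries lay above all Control libraries, in 71 they lay below, and in 6 the groups overlapped. The background over all genes was 59.4% above and 35.2% below. MoS2 lay wholly above Control in 16 members and wholly below in 35, beside 28.6% and 21.3% of all genes, and MoS2_NIR lay wholly above MoS2 in 63 and below in 41, beside 57.3% and 23.7%. In 16 members Control, MoS2 and MoS2_NIR were fully separated in falling order (11.3%, beside 12.5% of the rest), and in 16 in rising order (11.3%, beside 28.1% of the rest). The commonest arrangement was MoS2 overlapping Control with MoS2_NIR above both, in 46 members (32.4%, near the 28.4% of the rest). The mirror image with MoS2_NIR below both held in 24 (16.9%, beside 10% of the rest). No member had MoS2 above both other groups, beside 0.311% of the rest. MoS2 lay below both in 1 member (0.704%, near the 0.845% of the rest), so neither count sets the members apart. In C130012C08Rik, named for this, MoS2 lay below both, with values of 0.72, 0.62 and 0.53 in Control, then 0.16, 0.18 and 0.20 in MoS2 and 0.26, 0.27 and 0.31 in the MoS2_NIR libraries.

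**Figure D2:**
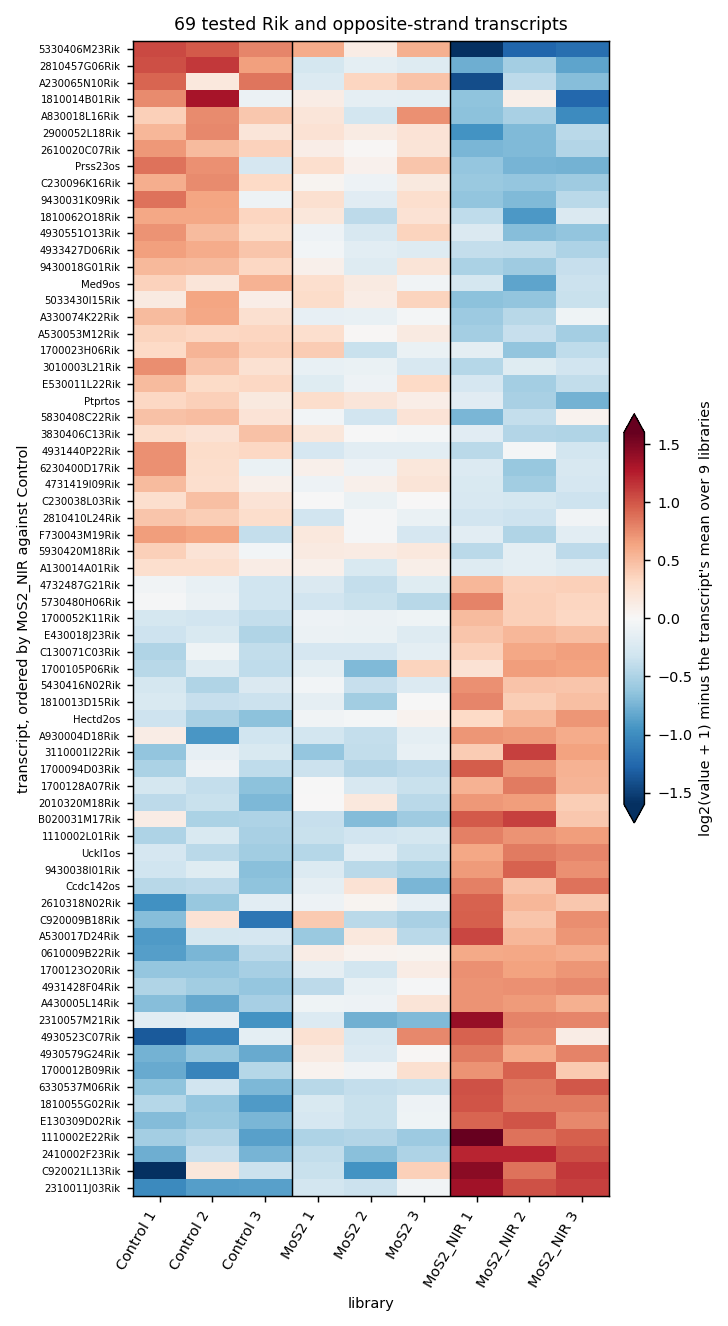
log2(value + 1) of each of the 69 tested members in each of the 9 libraries, minus that member's mean over the 9 libraries; rows are ordered by the log2 fold change of MoS2_NIR against Control and black lines part the groups. Control libraries are high in the upper block and MoS2_NIR libraries in the lower block, and the MoS2 libraries lie between them, with Control or, as in 4931440P22Rik, with MoS2_NIR.

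Of the tested Rik clones, 5330406M23Rik fell most across the whole change on the log2(value + 1) scale. By the ratio of the Control mean to the MoS2_NIR mean, 2810457G06Rik fell more (10.3 against 9.43). The values of 5330406M23Rik were 8.96, 8.44 and 7.21 in Control, 6.20, 4.20 and 6.09 in the MoS2 group and 0.55, 0.99 and 1.07 in the MoS2_NIR group. The 3 groups did not overlap, and the Control mean was 9.43 times the MoS2_NIR mean. The log2 fold change was -2.31 ± 0.16 (SE) with a limma adjusted p of 3.62e-07. It was the only tested member called for a larger fall at the light step (-1.79, limma adjusted p = 6.02e-06) than at the particle step (-0.51, limma adjusted p = 0.0262), and the steps differed by -1.28 (limma adjusted p = 0.00867). The particle-step call was lost without Control replicate 1 (0.0776), without Control replicate 2 (0.0619) and without MoS2 replicate 2 (0.101), all limma adjusted p.

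2810457G06Rik fell at both steps. It read 3.40, 3.71 and 2.38 in Control, 0.77, 0.93 and 0.87 with MoS2, and 0.25, 0.47 and 0.20 with MoS2_NIR. All MoS2 libraries lay below all Control libraries, and all MoS2_NIR libraries lay lower still. On the log2(value + 1) scale its particle step was the largest fall of any tested member, at -1.15 ± 0.15 (SE; limma adjusted p = 0.000446). Its light step was -0.51 (limma adjusted p = 0.00664). The steps differed by 0.64, which was not called as deposited (limma adjusted p = 0.0811) and was with median-ratio scaling (0.75, limma adjusted p = 0.0288). The whole change was -1.66 (limma adjusted p = 1.16e-06). The Control mean was 3.69 times the MoS2 mean and 10.3 times the MoS2_NIR mean.

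The other tested Rik clones among the 8 largest falls on the log2(value + 1) scale across the whole change were A230065N10Rik, 1810014B01Rik, A830018L16Rik, 2900052L18Rik, 2610020C07Rik and C230096K16Rik. Their log2 fold changes were -1.14 to -1.49. 2610020C07Rik and C230096K16Rik came down at both steps. 2610020C07Rik read 6.54, 5.63 and 5.0 in Control, then 3.99, 3.70 and 4.37 in MoS2 and 1.81, 1.84 and 2.37 in the MoS2_NIR libraries. C230096K16Rik read 2.70, 3.20 and 2.08, then 1.55, 1.34 and 1.77, then 0.64, 0.62 and 0.67 in the same order. In both, the 3 groups were fully separated. A830018L16Rik, at 13.80, 18.21 and 14.35 in Control and 12.01, 8.34 and 17.91 in MoS2, was not called at the particle step as deposited (-0.31, limma adjusted p = 0.293) but was after median-ratio scaling (-0.63, limma adjusted p = 0.0422). It fell to 6.21, 6.98 and 4.69 in MoS2_NIR (light step -0.94, limma adjusted p = 0.00409). 1810014B01Rik had the widest spread of these, with Control values of 12.86, 19.41 and 6.71 that overlapped those of MoS2_NIR (4.26, 7.77 and 2.42), and its call (-1.26, limma adjusted p = 0.0167) was lost without Control replicate 2 (-0.94, limma adjusted p = 0.0527). 5033430I15Rik and 9430031K09Rik were among the 8 largest falls at the light step, with -0.80 and -0.70 (limma adjusted p = 0.000582 and 0.0135). Both were also called lower in the whole change, with -0.84 and -1.06 (limma adjusted p = 0.000279 and 0.000865).

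A further group of Rik clones came down with the particles and was not called at the light step with the values as deposited. 4931440P22Rik read 5.41, 3.72 and 3.82 in Control, 2.20, 2.43 and 2.41 in the MoS2 group and 1.85, 2.77 and 2.14 in the MoS2_NIR group. Its particle step was -0.65 ± 0.15 (SE; limma adjusted p = 0.00654), and its light step was -0.05 (limma adjusted p = 0.756). The MoS2 and MoS2_NIR libraries overlapped and both lay below Control. 3010003L21Rik, A330074K22Rik, 2810410L24Rik and C230038L03Rik were also called at the particle step alone, so that 5 of the 69 tested members (7.25%) were called lower at the particle step and not called at the light step, beside 4.23% of the other tested genes. 3010003L21Rik read 2.89, 2.20 and 1.75 in Control, 1.15, 1.17 and 0.95 with MoS2, and 0.70, 1.04 and 0.88 with MoS2_NIR. 4933427D06Rik, the second largest called fall at the particle step, went from 4.45, 4.24 and 3.72 to 2.35, 2.08 and 2.01 (-0.71, limma adjusted p = 0.00126) and then to 1.66, 1.63 and 1.46 with light (-0.28, limma adjusted p = 0.0333). All 12 particle-step falls kept the call under the 3 scalings. This says little for median-ratio scaling, which shifts this step downwards because its factors are higher in MoS2 than in Control. The missing light-step calls of the 5 members did not hold: all 5 were called lower at the light step with both other scalings. For 4931440P22Rik the light step became -0.57 with median-ratio scaling (limma adjusted p = 0.0064) and -0.49 with quantile normalization (limma adjusted p = 0.0117). C230038L03Rik differs from the others in that its groups were fully separated, at 3.17, 2.90 and 3.21 in MoS2 and 2.53, 2.47 and 2.34 with light, and its light step went from -0.25 as deposited (limma adjusted p = 0.0576) to -0.79 with median-ratio scaling (limma adjusted p = 4.65e-05).

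Of the tested Rik clones that rose, 2310011J03Rik had the largest whole change on the log2(value + 1) scale. By the ratio of means, some clones with low values, such as 1110002E22Rik, rose more. The values of 2310011J03Rik were 3.45, 3.91 and 3.94 in Control, then 6.36, 6.14 and 7.73 in MoS2 and 21.94, 17.39 and 18.30 in the MoS2_NIR libraries. The 3 groups did not overlap, and the MoS2_NIR mean was 5.1 times the Control mean. The log2 fold change was 2.08 ± 0.12 (SE; limma adjusted p = 1.4e-07), of which 0.70 fell to the particle step and 1.38 to the light step. The steps differed by 0.69 (limma adjusted p = 0.0365). That difference was not called with median-ratio scaling (0.20, limma adjusted p = 0.545) or quantile normalization (0.40, limma adjusted p = 0.256). The calls of the particle step, the light step and the whole change kept their direction and their side of the threshold under every alternative run.

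2410002F23Rik responded at the light step. It read 7.96, 10.93 and 8.23 in Control, 10.71, 8.68 and 9.98 in the MoS2 group and 34.82, 35.09 and 30.61 in the MoS2_NIR group. Control and MoS2 overlapped, and every MoS2_NIR library was above both groups. The particle step was 0.11 (limma adjusted p = 0.487), the light step 1.68 ± 0.13 (SE; limma adjusted p = 2.36e-06), and the difference of the steps 1.57 (limma adjusted p = 0.00133). 1110002E22Rik and 6330537M06Rik had the same course from low values. 1110002E22Rik read 0.67, 0.76 and 0.34 in Control, 0.73, 0.77 and 0.63 with MoS2, and 6.45, 3.45 and 3.74 with MoS2_NIR (light step 1.66, limma adjusted p = 2.08e-05). 6330537M06Rik read 0.29, 0.63 and 0.22, then 0.48, 0.55 and 0.57, then 3.10, 2.61 and 3.03 (light step 1.35, limma adjusted p = 8.38e-06). Both passed the limit on low values through MoS2_NIR alone, so that they were tested only because they were high there.

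In 16 tested members the light step exceeded the particle step and in 1 (5330406M23Rik) it was lower, beside a background of 22.3% and 4.86%. With median-ratio scaling these counts were 8 and 4 (background 7.61% and 12.5%), and with quantile normalization 5 and 4 (8.12% and 11%). Over all 142 members without the limit they were 25 and 4 as deposited (background 20.7% and 3.47%), 14 and 6 with median-ratio scaling (7.57% and 8.87%), and 10 and 8 with quantile normalization (8.11% and 8.24%). Under all 3 scalings the light step exceeded the particle step in 5 tested members (7.25%, near the 6.55% of the other tested genes). They were 1110002E22Rik, 1700094D03Rik, 2410002F23Rik, 6330537M06Rik and B020031M17Rik. Of these, 1110002E22Rik, 1700094D03Rik and 6330537M06Rik were tested only because they were high in MoS2_NIR, so their calls carry no weight as a count. B020031M17Rik read 1.83, 0.84 and 0.85 in Control, then 1.01, 0.61 and 0.75 in MoS2 and 4.16, 4.57 and 2.50 in the MoS2_NIR libraries, with a light step of 1.38 (limma adjusted p = 0.000144). 1700094D03Rik went from 0.17, 0.07 and 0.11 in MoS2 to 1.90, 1.43 and 1.18 with light, and its Control values of 0.05, 0.40 and 0.12 overlapped those of MoS2. 2310057M21Rik and 9430038I01Rik had light steps of 1.55 and 1.17 (limma adjusted p = 0.00028 and 4.29e-05).

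Several Rik clones rose at both steps. A430005L14Rik read 15.47, 13.98 and 17.31 in Control, 24.15, 23.98 and 29.46 in the MoS2 group and 42.45, 41.23 and 37.99 in the MoS2_NIR group. The groups were fully separated, and the steps of 0.69 and 0.63 differed by -0.06 (limma adjusted p = 0.847). 0610009B22Rik read 6.31, 7.14 and 9.11, then 13.70, 13.09 and 12.94, then 19.60, 19.80 and 19.31, with a particle step of 0.75 ± 0.12 (SE; limma adjusted p = 0.00127). 1700012B09Rik read 6.67, 5.48 and 8.80, then 12.97, 11.93 and 15.05, then 21.12, 24.94 and 17.01, with a particle step of 0.86 ± 0.17 (SE; limma adjusted p = 0.0036). Its particle-step call stood under every alternative run, but its whole change of 1.47 became 0.41 after median-ratio scaling (limma adjusted p = 0.0925). 4930579G24Rik had a particle step of 0.70 (limma adjusted p = 0.00216). E130309D02Rik and 1810055G02Rik had whole changes of 1.57 and 1.55 (limma adjusted p = 4.5e-07 and 9.88e-07). In all, 11 of 69 tested members were called higher at both steps (15.9%, beside 29.2% of the other tested genes), and 7 were called lower at both (10.1%, beside 12.1%). None was called in opposite directions at the steps. This was rare in the other tested genes too, with 0.179% higher then lower and 0.476% lower then higher. Of the 11, only 2310011J03Rik kept both calls under all 3 scalings. The particle step of A430005L14Rik kept its call and its light step did not.

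**Figure D3:**
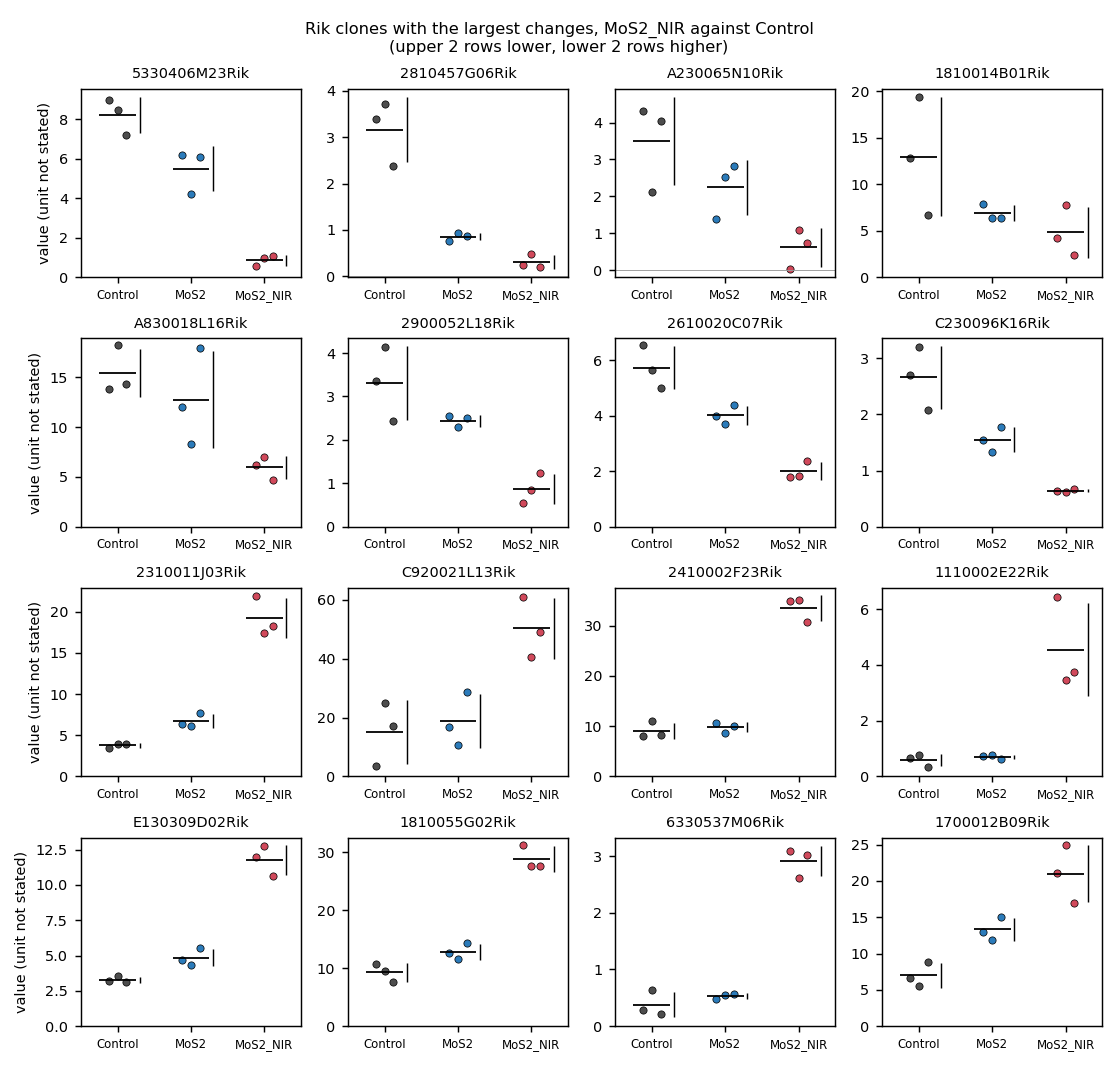
Recovered values (unit not stated, linear axes that start at or just below 0) of the 8 tested Rik clones with the largest falls (upper 2 rows of panels) and the 8 with the largest rises (lower 2 rows) in MoS2_NIR against Control, ranked on the log2(value + 1) scale. Points are libraries, horizontal lines group means and vertical lines ± 1 SD (n = 3). The 3 groups step down in 5330406M23Rik and 2810457G06Rik, MoS2 lies with Control in 2410002F23Rik, 1110002E22Rik and 6330537M06Rik, and the Control points of C920021L13Rik and 1810014B01Rik are widely spread.

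Some particle-step rises rested on the setting. 4930523C07Rik had the largest one on the log2(value + 1) scale, from 2.14, 2.84 and 6.18 in Control to 8.43, 5.69 and 12.59 in MoS2, and the groups overlapped. Its call (1.10 ± 0.37 SE, limma adjusted p = 0.0407) was lost in 11 of 21 alternatives, among them median-ratio scaling (0.85, limma adjusted p = 0.132), and without Control replicate 1 (0.86, 0.117), Control replicate 2 (1.00, 0.104), MoS2 replicate 1 (1.11, 0.0819), MoS2 replicate 3 (0.84, 0.116) or MoS2_NIR replicate 2 (1.10, 0.0597). The call of 2610318N02Rik (0.53, limma adjusted p = 0.0448) was lost in 16 of 21 alternatives. These include each single left-out library of Control replicates 1 and 2, the 3 MoS2 libraries and MoS2_NIR replicate 2. The call of 1700123O20Rik (0.49, limma adjusted p = 0.00762) was lost after median-ratio scaling (0.20, limma adjusted p = 0.194).

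Of the Rik clones that were not called in a comparison, those with the highest mean levels were C920021L13Rik, C920009B18Rik and F730043M19Rik, and each was widely spread in at least 1 group. C920021L13Rik read 3.52, 24.80 and 16.97 in Control, 16.84, 10.71 and 28.63 with MoS2, and 61.07, 40.64 and 48.96 with MoS2_NIR. Every MoS2_NIR library lay above the other groups, yet its light step of 1.46 was not called (limma adjusted p = 0.0735). That step was called in 6 of 21 alternatives, among them without Control replicate 1 (0.00446), without Control replicate 2 (0.0493) and with only the libraries compared (0.00629), all limma adjusted p. Its whole change of 1.98 was called (limma adjusted p = 0.0222) but not after median-ratio scaling (0.89, limma adjusted p = 0.254), nor without MoS2_NIR replicate 1 (1.83, 0.0583) or replicate 3 (1.99, 0.0512). C920009B18Rik, at 19.38, 37.40 and 13.64 in Control, then 42.68, 23.29 and 21.80 in MoS2 and 62.18, 43.42 and 53.68 in the MoS2_NIR libraries, had a light step of 0.89 (limma adjusted p = 0.0555). It was called at the light step without Control replicate 2 (0.0144), without Control replicate 3 (0.0305) and without MoS2 replicate 1 (0.0167). F730043M19Rik was the only tested member not called in the whole change (-0.58, limma adjusted p = 0.0545). It was called in 8 of 21 alternatives, with -1.66 after median-ratio scaling (limma adjusted p = 8.33e-05) and -1.05 after quantile normalization (limma adjusted p = 0.00144). Its Control values of 31.94, 31.04 and 14.92 include 1 low library, and without Control replicate 3 the change was -0.93 (limma adjusted p = 0.00024).

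The 7 opposite-strand transcripts parted into 4 that were lower and 3 that were higher with light, each called as deposited (Anxa11os in the fit without the limit on low values). Over all genes without the limit, 59.9% were called higher and 36.6% lower, so that being called sets none of them apart. The strand setting of the authors' counting is not stated, so reads of these RNAs and of the genes they overlap cannot be told apart. Ptprtos lies opposite Ptprt, a receptor-type tyrosine phosphatase. It read 51.55, 53.62 and 45.46 in Control, 49.86, 47.02 and 44.00 in the MoS2 group and 35.76, 28.24 and 23.83 in the MoS2_NIR group. Control and MoS2 overlapped and MoS2_NIR lay below both. The particle step was -0.09 (limma adjusted p = 0.58) and the light step -0.68 ± 0.14 (SE; limma adjusted p = 0.000856), while after median-ratio scaling the particle step was called too (-0.42, limma adjusted p = 0.0171). Ptprt itself was not analysed here.

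Prss23os is the only member whose sense gene was also analysed. Prss23os read 3.03, 2.66 and 0.83 in Control, 1.66, 1.30 and 2.0 with MoS2, and 0.43, 0.32 and 0.30 with MoS2_NIR, a light step of -0.97 (limma adjusted p = 0.00519). Prss23, which codes for a secreted serine protease, read 66.39, 59.52 and 61.62 in Control, then 47.19, 49.12 and 48.74 in MoS2 and 28.59, 26.20 and 30.89 in the MoS2_NIR libraries. Both transcripts were lowest in MoS2_NIR with no overlap. The whole changes were -1.15 for Prss23os (limma adjusted p = 0.0014) and -1.10 for Prss23 (limma adjusted p = 9.08e-07). Prss23 also fell at the particle step (-0.36, limma adjusted p = 0.00985), a call that quantile normalization lost (-0.23, limma adjusted p = 0.0503). For Prss23os the particle step was -0.19 (limma adjusted p = 0.556), and it was called without Control replicate 3, the library at 0.83 (-0.54, limma adjusted p = 0.0145).

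Med9os, opposite the gene of a Mediator subunit, read 4.56, 3.91 and 5.33 in Control, 4.19, 3.76 and 3.14 in the MoS2 group and 2.55, 1.40 and 2.39 in the MoS2_NIR group (light step -0.61, limma adjusted p = 0.00618). Its particle step of -0.25 (limma adjusted p = 0.229) was called after median-ratio scaling (-0.54, limma adjusted p = 0.0348). Anxa11os, opposite the gene of annexin A11, was below the limit on low values, with 0.79, 0.61 and 0.43 in Control, 0.77, 0.64 and 0.74 with MoS2, and 0.21, 0.22 and 0.32 with MoS2_NIR. Fitted without the limit, its whole change was -0.36 (limma adjusted p = 0.00655). In both transcripts the MoS2_NIR libraries lay below all others.

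Uckl1os, Ccdc142os and Hectd2os were higher with light. Uckl1os, opposite the gene of a uridine-cytidine kinase, read 0.54, 0.37 and 0.26 in Control, then 0.35, 0.65 and 0.45 in MoS2 and 1.85, 2.28 and 2.18 in the MoS2_NIR libraries. Its light step was 1.07 ± 0.13 (SE; limma adjusted p = 2.47e-05), and the MoS2_NIR libraries were above all others. Ccdc142os, opposite a gene named for its coiled coil, read 1.22, 1.27 and 0.94, then 1.74, 2.56 and 0.82, then 4.30, 3.15 and 4.52. Its whole change of 1.21 (limma adjusted p = 0.000266) became 0.43 after median-ratio scaling (limma adjusted p = 0.109). Its light step of 0.92 (limma adjusted p = 0.00233) became 0.32 after median-ratio scaling (limma adjusted p = 0.242) and 0.42 after quantile normalization (limma adjusted p = 0.134). Hectd2os, opposite the gene of a ubiquitin ligase of the HECT family, read 0.34, 0.18 and 0.07, then 0.62, 0.65 and 0.75, then 1.11, 1.43 and 1.76, and its 3 groups were fully separated in rising order. With the values as deposited it was the only opposite-strand member called at the particle step (0.49, limma adjusted p = 0.0119), and its light step of 0.53 (limma adjusted p = 0.00287) was lost after median-ratio scaling (0.12, limma adjusted p = 0.431) and quantile normalization (0.23, limma adjusted p = 0.0955). Uckl1os and Hectd2os passed the limit on low values through MoS2_NIR alone.

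**Figure D4:**
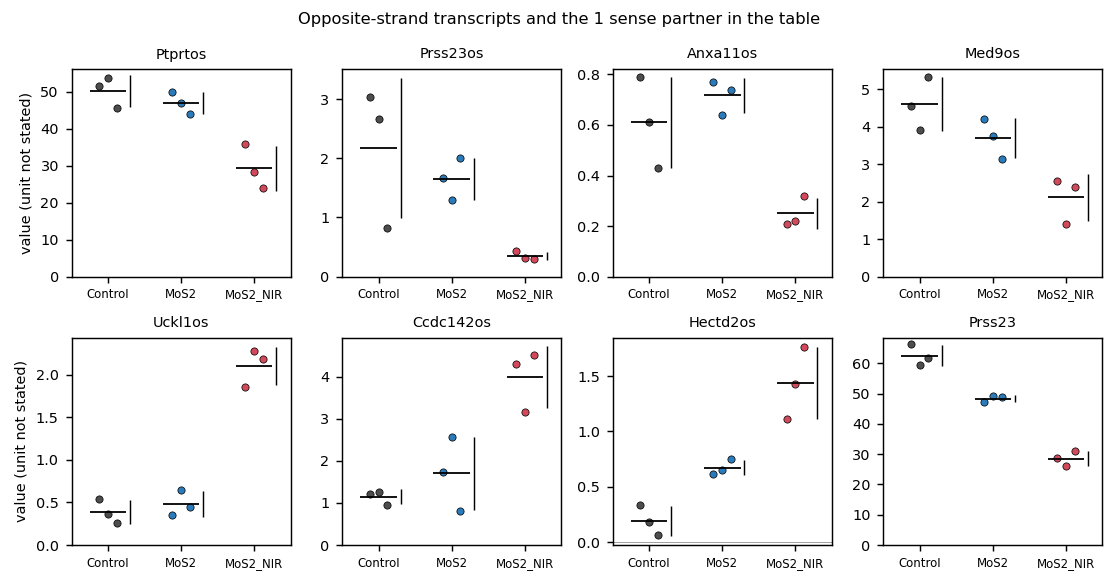
Recovered values (unit not stated, linear axes from 0) of the 7 opposite-strand transcripts and of Prss23, the sense gene of Prss23os; points are libraries, horizontal lines group means and vertical lines ± 1 SD (n = 3). MoS2_NIR lies below Control in Ptprtos, Prss23os, Anxa11os, Med9os and Prss23, and above Control in Uckl1os, Ccdc142os and Hectd2os.

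The 4 opposite-strand rows with numbered names, outside the rule, are given for comparison. Zmiz1os1 read 3.13, 2.92 and 2.71 in Control, 0.35, 0.55 and 0.95 in the MoS2 group and 0.00, 0.06 and 0.09 in the MoS2_NIR group. Its particle step of -1.29 (limma adjusted p = 0.00019) and its light step of -0.61 (limma adjusted p = 0.00184) were both called. Runx2os1 read 4.70, 3.90 and 2.98, then 2.62, 0.85 and 1.13, then 1.03, 0.22 and 0.36, a whole change of -1.68 (limma adjusted p = 0.000164). Ube4bos1 stayed below the limit on low values and was lower in MoS2_NIR than in Control without it (-0.49, limma adjusted p = 0.00151), and Atxn7l1os2 was higher (0.79, limma adjusted p = 6.49e-05).

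The 73 members below the limit on low values had no value above 1.62. Fitted without the limit, 29 were higher and 42 lower in MoS2_NIR than in Control, with log2 fold changes from -0.84 to 0.77, and 2 were not called (background over all genes 59.9% higher and 36.6% lower). At the particle step limma called 0 higher and 18 lower, and 3 were higher at an unadjusted p under 0.05 (background 21.1% higher and 16.7% lower). Without a model, MoS2_NIR lay wholly above Control in 28 of these members and wholly below in 41, beside 59.4% and 35.2% of all genes. MoS2 lay wholly below Control in 20 and above it in 3, beside 21.3% and 28.6%. These backgrounds are over all genes, most of which passed the limit, so they are not matched for low values. Among rows that are not members, limma called 514 higher at the particle step with the limit. Without it, when 570 more of these rows were tested, 494 were called higher. The fall of 6030400A10Rik from 1.12, 0.97 and 0.78 in Control through 0.46, 0.51 and 0.71 in MoS2 to 0.22, 0.06 and 0.00 in MoS2_NIR is an example chosen after its values were seen. Among all 142 members, 26 were listed at 0 in at least 1 library, beside 311 of the 2249 other rows. Members listed at 0 in every library of a group numbered 2 in Control, 2 in MoS2 and 4 in MoS2_NIR. Of the other rows, 45, 21 and 33 were so listed in the same order. The Control pair was A030005L19Rik and 4933417D19Rik, and A030005L19Rik read 0.75, 0.48 and 0.47 in MoS2_NIR. 1500005C15Rik, 2510016D11Rik, 9230112E08Rik and 1700010G06Rik were the members at 0 in all MoS2_NIR libraries, and 2510016D11Rik read 0.70, 0.41 and 0.65 in MoS2. They were named because of these values.

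The first 4 characters of a Rik name give the cDNA library of the clone. The 135 clones came from 73 such libraries, 43 of which gave 1 member, so few could be described as a group. The libraries 1700, 4930 and 4933, all made from adult mouse testis, gave 11, 7 and 7 members. Of the 11 clones of library 1700, 8 were higher and 3 lower in MoS2_NIR than in Control without the limit on low values. Of the 7 clones of 4930, 3 were higher and 4 lower, and the 7 of 4933 divided in the same way. Library 9430 gave 5 clones, 2 higher and 3 lower. The background over all genes was 59.9% higher and 36.6% lower. These counts are small, the clones of a library share only the tissue in which they were first cloned, and the counts were not tested.

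Fos, which codes for a subunit of the AP-1 transcription factor and is induced within minutes by many stimuli, shares only its last letters with these transcripts. It read 22.19, 22.04 and 18.04 in Control, 43.00, 44.34 and 51.67 with MoS2, and 3.90, 7.33 and 15.08 with MoS2_NIR. MoS2 was above both other groups with no overlap. No Rik or opposite-strand member had this order, which is rare in the rest of the table too (0.311%). The particle step was 1.12 (limma adjusted p = 0.0374), not called after median-ratio scaling (0.81, limma adjusted p = 0.0941) nor without any 1 of the Control or MoS2 libraries (limma adjusted p from 0.063 to 0.0951) or MoS2_NIR replicate 2 (0.0589). The light step was -2.44 ± 0.37 (SE; limma adjusted p = 0.000359), and the steps differed by -3.56 (limma adjusted p = 0.0061).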

How the data were processed

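Per the labels, mRNA libraries of 4T1 cells were made with a QIAseq FX Single Cell RNA kit. The submitters' processing notes name the mouse build mm10 and HTSeq, Cufflinks 2.1.1 and Bowtie 0.12.9, without their roles. Rows were treated as mouse genes from the source, cell line, build and identifiers, although the labelled organism is the rat. The authors deposited 1 score per gene and library, standardized per gene over the 9 libraries (population SD of 1 in 2391 rows; all 0 in Gm10736). Depth is unknown, and no counting interval is given. No read counts were analysed here, so no count test was run.

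The values behind the deposited scores were recovered for 2391 of 2392 genes (99.96%) through a search over multiples of 0.01, taken as natural log of value + 1 and standardized, for those that return the scores (tolerance 6e-10, expected chance solutions below 0.001). For 9 genes, 1 of them the member 1700028K03Rik, the values may all be off by 1 common whole-number factor. Values were taken as log2(value + 1) into limma 3.58.1 (R 4.3.3) with trend and robust moderation, all 9 libraries in 1 fit with 6 residual degrees of freedom. Genes with at least 1 in at least 3 libraries were tested (1748), with Benjamini-Hochberg adjustment over all of them and a threshold of 0.05. The scripts were tested on simulated data.

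Alternatives were other pseudocounts, limits and scalings, limma without moderation by trend, fits on the groups compared, the deposited scores, a replicate block and each library left out. The plan had expected values in a named unit. Named Rik clones were, per comparison, the 8 tested with the largest calls in each direction and up to 3 not called with the highest means, plus all opposite-strand rows. Others were named where a count was small or after their values were seen. Members and lists were chosen with earlier results of these data known. Sequences and positions were not analysed here.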

Additional observations from a re-analysis of the deposited data

How the results depend on the processing

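Among the 78 results of genes named by the rule, Fos and Prss23 included, no call reversed, while 5730480H06Rik, outside it, reversed under median-ratio scaling. That scaling lost 9 of these calls, that of Fos at the particle step among them, and added 4. The numbers of called members changed with the limit on low values, and so did their shares. At the particle step 17.4% of tested members were called in each direction. With a limit of at least 5 in 3 libraries, 39.3% were called higher and 7.14% lower. For these shifts and those between scalings the cause was not tested. Counts are higher and lower.

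Without the limit, members called numbered 29 lower in MoS2 against Control, 66 and 73 in MoS2_NIR against Control, 61 and 38 in MoS2_NIR against MoS2, and 25 and 4 for the difference of the steps. With a limit of at least 5 in 3 libraries, 28 members were tested, and those called numbered 2 lower, 19 and 8, 16 and 6, and 8 higher. The background over the 1054 genes tested was 19.7% lower, 65% and 33%, 63.2% and 27.6%, and 20.1% higher. The members' shares in the whole change were 67.9% higher and 28.6% lower. With median-ratio scaling, they numbered 6 and 29 at the particle step, 13 higher in the whole change, 14 and 32 at the light step, and 8 and 4 for the difference. With quantile normalization, they numbered 19 and 32 at the light step and 5 and 4 for the difference. Alternatives added after seeing the data dropped the limit together with a scaling. With median-ratio scaling this gave 6 and 58 at the particle step, 77 lower in the whole change, 54 lower at the light step and 6 lower for the difference. With quantile normalization it gave 30 lower, then 60 and 76, then 57 lower, and 10 and 8 for the difference.

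The members' median log2 fold change at the particle step, -0.08, became 0.12 with the limit of 5, -0.28 with median-ratio scaling and -0.23 with median-ratio scaling and no limit. For the whole change, 0.73 became 1.28 and 0.26 with pseudocounts of 0.1 and 5, -0.22 without the limit, 1.23 with the limit of 5, 0.12 with median-ratio scaling, 0.42 with quantile normalization, and -0.36 and -0.25 with these scalings and no limit. At the light step, 0.53 became 0.64 and 0.20 with the pseudocounts, -0.05 without the limit, 0.72 with the limit of 5, -0.15 and 0.10 with the scalings, and -0.12 and -0.10 with these and no limit.

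Leaving out single libraries gave 7 to 16 members lower at the particle step (7 without MoS2 replicate 2, 16 without Control replicate 3, against 12). The background moved alike, with 12.1% and 18.4% lower in the same order, against 16.8%. For the difference of the steps, 9 to 17 members were higher (9 without MoS2 replicate 2, 17 without Control replicate 3, against 16). The background was 13.6% and 30.4% higher, against 22.3%. Lower for the difference were 1 to 2 members (2 without Control replicate 2, MoS2_NIR replicate 1 or MoS2_NIR replicate 3, against 1). The background was 4.46%, 4.58% and 4.98% lower in that order, against 4.86%. Replicate numbers did not pair the libraries: deviations correlated at -0.08 to 0.10 for the same number and -0.16 to 0.09 for different numbers. A replicate block moved no count by over 1.5 times. It lost the particle-step calls of 4930523C07Rik (limma adjusted p = 0.0558) and 2610318N02Rik (limma adjusted p = 0.0797) and gave one for F730043M19Rik in the whole change (limma adjusted p = 0.0304).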
